A study of Homo sapiens with 6 samples.

Results

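Promoter regions that were open in both the non-cancerous esophageal line HET-1A and the esophageal squamous cell carcinoma (ESCC) line KYSE-30, but not in the ESCC line KYSE-150, are described here. Peaks of all 6 ATAC-seq libraries were merged into 23972 regions wherever they shared at least 1 bp. Members were chosen by called peaks and position only, and a region was taken when it held a peak of HET-1A and a peak of KYSE-30, held none of KYSE-150, and lay within 3 kb of a transcription start site. This gave 3085 regions, 12.9% of all merged regions. They are called shared promoters below. Of the 4663 regions with a peak in both HET-1A and KYSE-30, 3258 lay within 3 kb of a start site, and 173 of these were left out because KYSE-150 also had a peak.

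ATAC-seq uses the Tn5 transposase to cut accessible DNA, so that open chromatin collects more sequenced tags than its surroundings. Each line was assayed in 2 libraries, which the labels number 1 and 2 for HET-1A, 4 and 6 for KYSE-30 and 7 and 8 for KYSE-150. HET-1A is an immortalised epithelial line and is labelled non-cancerous, and it was grown in BEBM, a defined bronchial epithelial medium with its additives. Both ESCC lines were grown in RPMI/F12 with serum. None of the cultures carries a treatment. Medium and line cannot be told apart, and each group is a single cell line. Only called peaks are used, so a region without a peak may be open below the calling threshold.

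The lists differ greatly in length, from 168 and 15979 peaks in HET-1A libraries 1 and 2 to 1255 and 11671 in KYSE-30 libraries 4 and 6 and 547 and 259 in KYSE-150 libraries 7 and 8. The condition on KYSE-150 therefore says little about closed chromatin in that line. All 3085 shared promoters had a peak in library 2 of HET-1A, and 3008 of them (97.5%) had one in library 6 of KYSE-30. library 4 of KYSE-30 had a peak in 446 (14.5%) and library 1 of HET-1A in 3. The commonest pattern was libraries 2 and 6, with 2638 regions (85.5%), followed by libraries 2, 4 and 6 with 369 (11.96%) and libraries 2 and 4 with 75. No region had a peak in all 4 libraries of both lines. Without library 2 of HET-1A only 2 regions would remain, and without library 6 of KYSE-30 there would be 440. No test between lines was run, because the exact permutation test of 2 against 2 libraries, two-sided, gives at best a p of 0.33. Values are given per library, and the Wilson 95% intervals of shares cover counting error only. Regions are not replicates of a line.

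Promoters are the stretches of DNA around transcription start sites where general transcription factors and RNA polymerase II assemble. Promoters of genes that nearly every cell needs are mostly rich in CpG dinucleotides and stay free of nucleosomes in many tissues, and they often drive transcription in both directions. Factors that bind there include NFY, which reads the CCAAT box, SP factors, which read GC boxes, and the ETS, NRF1, CREB, YY1 and ZNF143 proteins. AP-1, a dimer of FOS and JUN proteins, is better known from enhancers.

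Examples of such letters in the shared promoters are given first, because sequence is a property the choice of regions did not use. For each factor the regions of protein-coding genes with the highest lower value of the HET-1A and KYSE-30 fold enrichments were taken, among those where the letters lay outside annotated exons. Each sequence is 100 bases of hg19 on the strand of the named gene, 5′ to 3′, and the capitals mark 1 match to the letters that were searched for, or to their reverse complement. The sequences of CHCHD2, a mitochondrial and nuclear protein, at chr7:56174306-56174405 (minus strand) and TIMMDC1, an assembly factor of respiratory complex I, at chr3:119217225-119217324 (plus strand) show the ETS core CCGGAAGT as its reverse complement ACTTCCGG. C9orf85 at chr9:74526147-74526246 (plus strand) and RFWD3, a ubiquitin ligase of DNA repair, at chr16:74700861-74700960 (minus strand) show the extended CCAAT box. The remaining promoter examples are WDFY2 for NRF1 at chr13:52158310-52158409 (plus strand), SYAP1 for the cyclic AMP response element at chrX:16737597-16737696 (plus strand) and ZBED6 for YY1 at chr1:203764616-203764715 (plus strand), together with FEM1A for ZNF143 at chr19:4791469-4791568 (plus strand). These 8 windows lie between annotated genes, upstream of the start site. CREB5 at chr7:28651755-28651854 (plus strand) shows the AP-1 core, within an intron of the named gene and 3126 bp downstream of an internal start site, and its sequence holds another AP-1 match that is left in lower case.
CHCHD2: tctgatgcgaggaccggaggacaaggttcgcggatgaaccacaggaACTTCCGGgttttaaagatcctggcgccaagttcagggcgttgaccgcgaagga
TIMMDC1: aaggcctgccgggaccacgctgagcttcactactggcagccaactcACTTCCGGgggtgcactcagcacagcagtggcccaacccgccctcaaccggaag
C9orf85: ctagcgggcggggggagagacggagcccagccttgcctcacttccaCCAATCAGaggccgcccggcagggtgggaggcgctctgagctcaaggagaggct
RFWD3: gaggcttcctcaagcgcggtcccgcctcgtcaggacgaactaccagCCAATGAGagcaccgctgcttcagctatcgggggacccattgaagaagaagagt
WDFY2: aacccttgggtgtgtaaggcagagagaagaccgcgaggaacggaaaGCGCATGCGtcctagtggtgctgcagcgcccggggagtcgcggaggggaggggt
SYAP1: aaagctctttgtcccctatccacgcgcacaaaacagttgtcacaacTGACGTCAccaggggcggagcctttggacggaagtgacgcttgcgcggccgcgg
ZBED6: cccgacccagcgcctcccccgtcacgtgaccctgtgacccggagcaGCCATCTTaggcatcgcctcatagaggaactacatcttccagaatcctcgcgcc
FEM1A: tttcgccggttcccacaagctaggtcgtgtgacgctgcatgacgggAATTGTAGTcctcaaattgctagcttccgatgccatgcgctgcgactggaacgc
CREB5: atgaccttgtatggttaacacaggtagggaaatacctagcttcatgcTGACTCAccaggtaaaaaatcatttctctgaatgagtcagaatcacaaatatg

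The distance from the letters to the start site was short in most of these examples. The centre of the ETS core lay 186 bp upstream of the CHCHD2 start and 120 bp upstream of the TIMMDC1 start. The extended CCAAT box lay 230 bp upstream of the C9orf85 start and 135 bp upstream of the RFWD3 start. Distances upstream were 232 bp for WDFY2, 89 bp for SYAP1, 86 bp for ZBED6 and 228 bp for FEM1A. Fold enrichment, the authors' ratio of summit tags over local background after 1 is added to both, was 8.06 in library 2 of HET-1A and 11.2 in library 6 of KYSE-30 at CHCHD2. It was 8.03 and 10.2 at TIMMDC1, and 8.61 and 11.5 at C9orf85.

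Most shared promoters lay on start sites. The region overlapped an annotated start site in 2427 of 3085 (78.7%, interval 77.2 to 80.1%), compared with 48.0% of 5174 promoter regions with peaks of HET-1A alone and 52.5% of 3369 with peaks of KYSE-30 alone. Among the others, 152 lay within 100 bp of a start site, 166 beyond that within 500 bp, 76 beyond 500 bp within 1000 bp, 144 beyond 1000 bp within 2000 bp and 120 farther out. A protein-coding start site was within 3 kb of 2720 regions (88.2%), which together involved 3292 protein-coding genes. In the remaining 365 only non-coding transcripts started within that distance, and 441 regions overlapped start sites of 2 or more protein-coding genes. Start sites were taken from GENCODE 44 on hg19.

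The summit, the base with the most tags, gives a position that does not depend on how wide a region is. Its median distance to the nearest start site was 76 bp (quartiles 30 and 188 bp) for shared promoters, 175 bp for HET-1A-only promoters and 136 bp for KYSE-30-only promoters. It fell within 100 bp of a start site in 58.2% of shared promoters (interval 56.4 to 59.9%), in 40.3% (38.97 to 41.6%) of HET-1A-only promoters and in 44.7% (43.0 to 46.4%) of KYSE-30-only promoters, so the interval of shared promoters overlapped neither of the others. The median distance to a start site was similar between libraries, at 77 bp in library 2 of HET-1A, 77 bp in library 4 of KYSE-30 and 76.5 bp in library 6 of KYSE-30. In 75.01% of shared promoters the summit was upstream of the start site, and the 50-bp bin that held most summits, 776 regions or 25.2%, lay directly upstream.

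**Figure D1:**
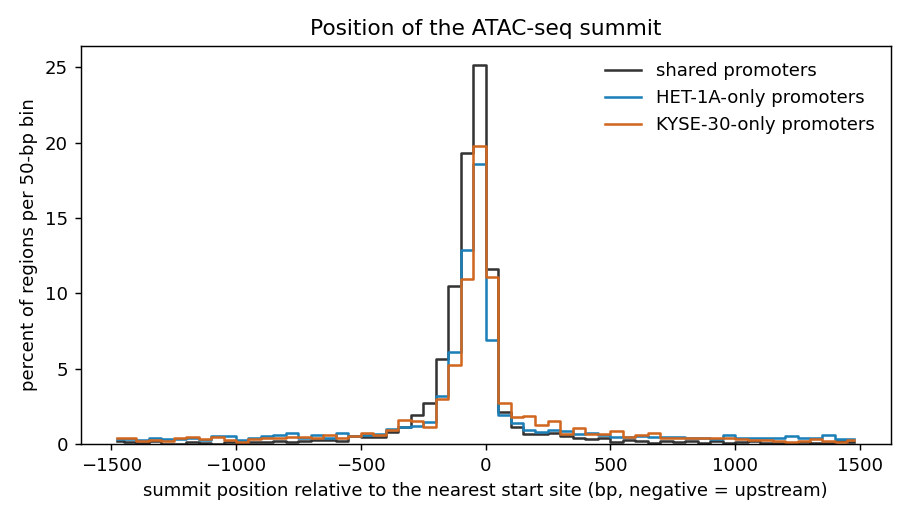
Percent of regions whose summit falls in each 50-bp bin of distance to the nearest start site (negative values are upstream), for 3085 shared promoters, 5174 HET-1A-only promoters and 3369 KYSE-30-only promoters. The highest bin of shared promoters, just upstream of the start site, holds 25.2% of them, and summits farther than 1500 bp are not drawn.

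The distance between the summits of both lines in a region is bounded by the choice of regions, which merged overlapping peaks. Between library 2 of HET-1A and library 6 of KYSE-30 the median distance of summits was 45 bp, and 53.4% of 3008 regions (interval 51.6 to 55.2%) had summits within 50 bp of each other. Regions that both lines shared away from start sites had closer summits, with a median of 38 bp and 59.8% of 1346 within 50 bp. In the 369 shared promoters with peaks in libraries 2, 4 and 6, the median distance was 54 bp between library 2 of HET-1A and library 6 of KYSE-30. It was 72 bp between the KYSE-30 libraries and 82 bp between library 2 of HET-1A and library 4 of KYSE-30. The replicate libraries of KYSE-30 thus placed their summits no closer to each other than libraries 2 and 6 of different lines did.

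Shared promoters were wide and CpG-rich and often had start sites on both strands. Their median width was 423 bp (quartiles 337 and 540 bp), compared with 266 bp for HET-1A-only and 273 bp for KYSE-30-only promoters and 368 bp for the 1372 regions that HET-1A and KYSE-30 shared away from start sites. A merged region of several peaks is wider by construction. A region was called CpG-rich when its GC content was above 50% and its ratio of observed to expected CpG above 0.6. This held for 77.6% of shared promoters (interval 76.1 to 79.0%), 49.6% of HET-1A-only promoters, 52.1% of KYSE-30-only promoters, 5.61% of shared distal regions and 59.0% of windows of 423 bp at all 20162 protein-coding gene starts. Start sites on both strands were counted within 1 kb of the centre of a region or of a gene start. Whether they pointed away from each other was not checked. They were present at 36.1% of shared promoters (34.4 to 37.8%), 19.2% of HET-1A-only promoters, 24.2% of KYSE-30-only promoters and 30.5% of all protein-coding gene starts. When only protein-coding start sites were counted, the share of shared promoters fell to 17.2%.

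The strongest peaks were shared most often. Among the promoter regions of library 2 of HET-1A, 10.3% of the quintile with the lowest fold enrichment and 64.4% of the quintile with the highest were shared with KYSE-30, against 37.5% of all 8232. Among those of library 6 of KYSE-30 the share went from 35.4% in the lowest quintile to 61.2% in the highest, against 48.5% of all 6204. The rise with strength was thus steeper in library 2 of HET-1A. The rule counts called peaks, so these shares describe how members were chosen and also carry the detection limit of each list.

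**Figure D2:**
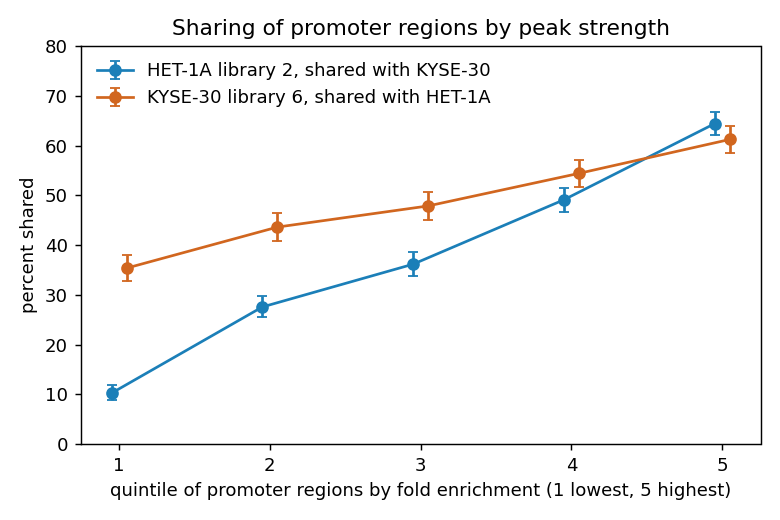
Percent of promoter regions shared with the other line (y axis) by quintile of fold enrichment (x axis) in library 2 of HET-1A and library 6 of KYSE-30, with Wilson 95% intervals. Both lines climb from the lowest to the highest quintile, from 10.3 to 64.4% in library 2 of HET-1A and from 35.4 to 61.2% in library 6 of KYSE-30.

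Fold enrichment of shared promoters had a median of 5.04 in library 2 of HET-1A (range 1.78 to 14.3, 3085 regions), 5.82 in library 6 of KYSE-30 (2.52 to 19.8, 3008 regions) and 4.35 in library 4 of KYSE-30 (2.46 to 9.81, 446 regions). The 3 values in library 1 of HET-1A lay between 4.20 and 7.63. HET-1A-only promoters had a median of 4.12 in library 2, and KYSE-30-only promoters 5.24 in library 6. The summits held a median of 27 tags in library 2 of HET-1A and 19 in KYSE-30 libraries 4 and 6. With so few tags, single regions have wide counting errors.

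The replicate library of KYSE-30 was a measure the choice of most regions did not rest on. Of 3008 promoter regions with peaks in library 6 of KYSE-30 and library 2 of HET-1A, 12.3% (interval 11.1 to 13.5%) also had a peak in library 4 of KYSE-30. Of 3196 with a peak in library 6 but not in library 2 of HET-1A, this share was 3.41% (2.84 to 4.10%). The difference was present within each tertile of library 6 fold enrichment, at 5.73 against 1.94% in the lowest, 10.6 against 2.46% in the middle and 17.9 against 6.81% in the highest. A peak of library 4 was counted anywhere in the merged region. Shared promoters had a median width of 423 bp, against 273 bp for KYSE-30-only promoters. The part of width in this difference was not tested. library 1 of HET-1A gave no such comparison, with 1 of 3008 regions against 5 of 5224.

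The regions with the highest fold enrichment in both lines included those of ELAC2, MTOR and AURKA. ZNF286A, a zinc finger gene (chr17:15602700-15603180), had fold enrichments of 14.3 in library 2 of HET-1A, 7.86 in library 4 of KYSE-30 and 16.7 in library 6 of KYSE-30. The region at ELAC2, a nuclease that trims transfer RNA, had 9.67, 3.68 and 12.6 in the same libraries. MTOR, the kinase that couples growth to nutrients, had 9.21 in library 2 of HET-1A and 9.29 in library 6 of KYSE-30. AURKA, a mitotic kinase that shares its region with the oppositely oriented CSTF1, had 8.97 and 8.89. TMEM70 and ELOC shared one region, with 8.54 in library 2 of HET-1A, 4.32 in library 4 of KYSE-30 and 13.2 in library 6 of KYSE-30. GOLGB1, a Golgi protein, had 8.94 and 8.86, and HSD17B12, an enzyme of fatty acid elongation, had 8.52 and 13.7 at a region 828 bp from the start site. The non-coding LINC00663 and ENSG00000291068 had 10.4 and 11.97 in library 2 of HET-1A and 9.88 and 11.9 in library 6 of KYSE-30.

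Only 3 regions had a peak in library 1 of HET-1A. RNA5S6, a copy of the 5S ribosomal RNA gene on chromosome 1, had fold enrichments of 7.63, 8.06 and 9.81 in HET-1A libraries 1 and 2 and library 4 of KYSE-30. AL441988.1 on chromosome 20 had 4.20, 3.79 and 4.56 in the same libraries. Neither had a peak in library 6 of KYSE-30, and 5S genes lie in near-identical copies, so reads there cannot be assigned to one copy with certainty. ZNF7, a zinc finger gene, had 5.29 in library 1 of HET-1A, 4.61 in library 2 of HET-1A and 4.12 in library 6 of KYSE-30.

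Genes of the basic machinery of the cell held shared promoters at a higher rate than genes in general. Of 20136 protein-coding genes, 3292 (16.3%, interval 15.8 to 16.9%) had a shared promoter within 3 kb of a start site. Of 69 splicing factor genes, 35 did (50.7%, 39.2 to 62.2%), of 37 tRNA synthetase genes 18 (48.6%, 33.4 to 64.1%), and of 43 genes of RNA polymerase II and Mediator 18 (41.9%, 28.4 to 56.7%). Chaperone genes followed with 32 of 82 (39.02%), DNA replication genes with 16 of 44 (36.4%), mitochondrial ribosomal protein genes with 27 of 78 (34.6%), proteasome subunits with 16 of 48 (33.3%) and oxidative phosphorylation genes with 28 of 84 (33.3%). The lower limit of each of these 8 intervals was above 16.9%. Promoter peaks of any kind were also commoner in these lists. No promoter peak in any library was found for 53.6% of all genes, against 12.5 to 27.9% of the genes of the 8 lists. Proteasome subunits had HET-1A-only promoters at 12 and KYSE-30-only promoters at 11 of 48 genes, beside 3633 and 2423 of all 20136. Splicing factor genes had 15 and 7 of 69. These are counts of peaks, with no enrichment test, and genes that share a promoter are counted once each.

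In the splicing list, HNRNPA3, an RNA-binding protein, had fold enrichments of 9.67 in library 2 of HET-1A and 6.52 in library 6 of KYSE-30. SRSF5, a serine and arginine rich splicing factor, had 7.12 in library 2 of HET-1A, 5.05 in library 4 of KYSE-30 and 10.3 in library 6 of KYSE-30. Among the synthetases, TARS1, which charges threonine tRNA, had 8.49, 3.62 and 10.8 in these libraries. EPRS1, which charges glutamate and proline tRNAs, had 7.12 in library 2 of HET-1A and 9.25 in library 6 of KYSE-30. Among the Mediator and polymerase genes, MED7 had 5.06 and 11.3, and MED19 7.21 and 8.64. RPS7 of the small ribosomal subunit had 5.58 and 10.4. MRPL47 of the mitochondrial ribosome and NDUFB5 of respiratory complex I share one region, with 5.06 and 11.0. Peaks of library 4 of KYSE-30 were few in every list, the most being in 11 of 82 regions of the zinc finger list and 10 of 33 of the chaperone list.

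Cell cycle genes also held shared promoters at a higher rate than all protein-coding genes. Of 46 cell cycle genes, 15 had a shared promoter (32.6%, interval 20.9 to 47.0%), beside 16.3% of all genes. Promoter peaks of any kind were commoner here too, with none in any library for 19.6% of these genes against 53.6% of all genes. HET-1A-only promoters were present at 11 and KYSE-30-only promoters at 9 of the 46, beside 3633 and 2423 of all 20136. CDK1, the kinase that drives entry into mitosis, had fold enrichments of 5.06 in library 2 of HET-1A and 9.67 in library 6 of KYSE-30, and PLK1, another mitotic kinase, 7.41 and 5.74. CCNB1, the cyclin partner of CDK1, had 6.68 in library 2 of HET-1A, 5.40 in library 4 of KYSE-30 and 5.60 in library 6 of KYSE-30. MCM3, a subunit of the replicative helicase, had 5.06 and 8.85, and ORC3 of the origin recognition complex 6.91 and 7.01. UBE2T, the ubiquitin conjugating enzyme of the Fanconi pathway, had 9.44, 4.39 and 5.83 in libraries 2, 4 and 6. In the homologous recombination and Fanconi list 9 of 30 genes were shared (30.0%), and in the list of ubiquitin conjugating enzymes 9 of 34 (26.5%). The intervals of these 2 lists reached down to 16.7 and 14.6%. No promoter peak in any library was found for 16.7 and 35.3% of their genes.

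The other lists of general functions were similar. Translation initiation factors had 18 of 56 (32.1%), nuclear pore genes 9 of 28 (32.1%) and cytosolic ribosomal protein genes 27 of 88 (30.7%). Here too, promoter peaks of any kind were commoner than among all genes. Genes with none in any library made up 28.6, 7.14 and 25% of these lists in the same order, against 53.6% of all genes. Whether the shared rates also differ among only the genes with a promoter peak was not tested. Of 77 histone genes, 20 were shared (26.0%), but they fell into 11 regions, because neighbouring histone genes lay within 3 kb of the same region. Another 21 histone genes had peaks of KYSE-30 alone against 3 of HET-1A alone, beside 2423 and 3633 of all 20136 genes. These 21 and 3 are genes, which can share a region, and their regions were not counted. Of the 77 histone genes, 30 had no promoter peak in any library. Of 508 zinc finger genes, 84 were shared (16.5%, interval 13.6 to 20.01%), close to the share of all genes.

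Olfactory receptor genes and hormone, neuronal and muscle genes, which few tissues express, had no shared promoter. Of 399 olfactory receptor genes none was shared, which allows a share of up to 0.954% by the Wilson interval. Of 28 hormone, neuronal and muscle genes none was shared (up to 12.1%). No promoter peak in any library was found for 98.7% of the former and 89.3% of the latter, so few of them could be shared. Among genes of the squamous lineage, 4 of 32 were shared (12.5%, interval 4.97 to 28.1%), an interval that holds the share of all genes. Among these were PAX9, with fold enrichments of 5.29 in library 2 of HET-1A and 6.77 in library 6 of KYSE-30, GRHL1 with 3.29 and 5.70 and ELF3 with 3.66 and 3.67, which encode transcription factors of epithelia. Of 25 AP-1 genes 4 were shared (16%, interval 6.40 to 34.7%), close to the share of all genes. JUN had 5.43 and 8.70, ATF2 had 6.68, 4.17 and 10.4 in libraries 2, 4 and 6, and FOSL2 had 3.66 and 7.26, while the fourth, NRL, shares its region with DCAF11.

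**Figure D3:**
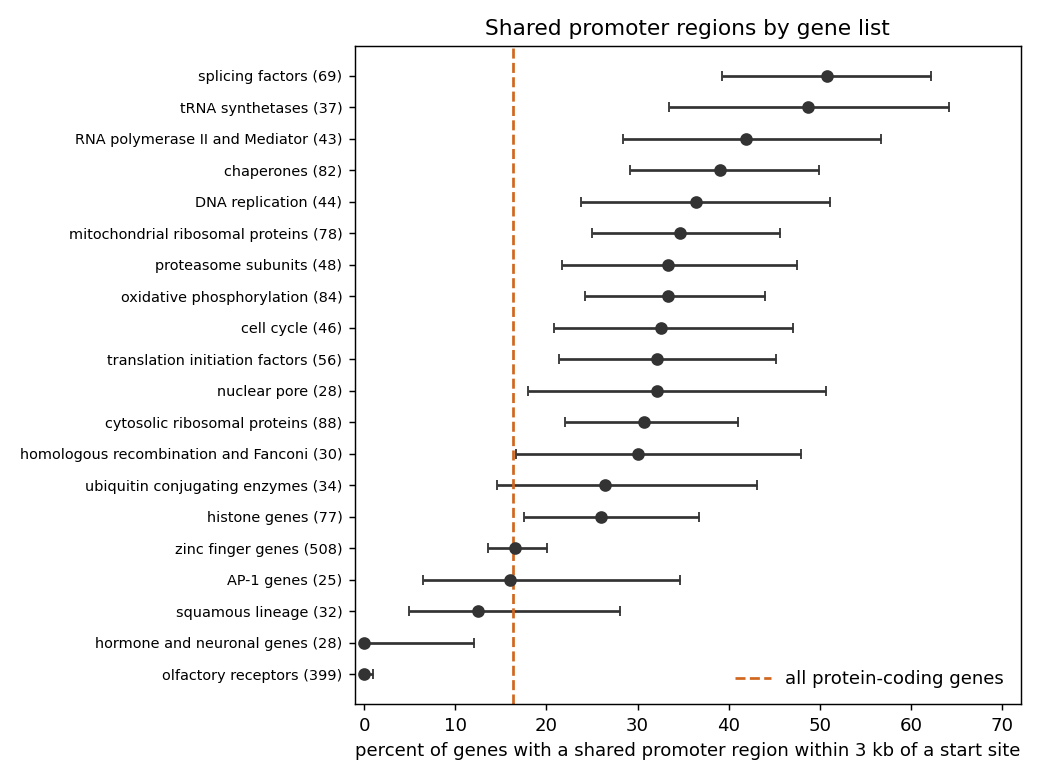
Percent of the genes of each list with a shared promoter within 3 kb of a start site (x axis), with Wilson 95% intervals and the number of genes in parentheses. The dashed line is the share of all 20136 protein-coding genes, 16.3%, and the points run from 0% for 399 olfactory receptor genes to 50.7% for 69 splicing factor genes.

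Marker peaks were too few to check the epithelial label of both lines. Of 12 epithelial markers, 6 had a promoter peak in library 2 of HET-1A and 3 in library 6 of KYSE-30. Over all 20136 protein-coding genes these numbers were 7128 and 5777. The shared markers were EPCAM, KRT8 and LAMB3 (25%, interval 8.89 to 53.2%), an interval that holds the share of all genes, 16.3%. Fold enrichments at EPCAM, an epithelial adhesion protein, were 4.91 in library 2 of HET-1A and 5.23 in library 6 of KYSE-30. KRT8, a keratin of simple epithelia, had 3.70 and 4.63. KRT5, KRT14, TP63 and CDH1, which define squamous or general epithelium, had no promoter peak in any library. No blood marker (6 genes) and none of 3 endothelial markers had a peak in any library, which also held for 53.6% of all protein-coding genes. Of 8 mesenchymal markers, FN1 had one in library 2 of HET-1A and VIM one in library 6 of KYSE-30.

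The sequence content of shared promoters was then compared with that of other promoters. Short core motifs were searched on both strands in 200 bp around the summit of the strongest peak. Each class was thus searched over the same length. The search was also made in 200 bp around the outermost annotated start of each of 20162 protein-coding genes. Those windows are centred on a start, whereas the summits of shared promoters lay a median of 50 bp upstream of one. Shares at all starts are therefore not a like measure. The letters were GGGCGG for SP factors, CCAAT for NFY, CCAATCAG or CCAATGAG for the extended CCAAT box, TGACTCA or its reverse complement TGAGTCA for AP-1, CCGGAAGT for ETS, GCGCATGCG for NRF1, TGACGTCA for the cyclic AMP response element, AAGATGGC for YY1, ACTACAATT for ZNF143, CACGTG for the E-box, TATAAA for the TATA box and CCACTAGGG for CTCF. The extended CCAAT box is a subset of CCAAT. A match describes letters and is not evidence that the factor was bound.

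CCAAT was present in 43.5% of shared promoters (interval 41.8 to 45.3%), 26.7% of HET-1A-only promoters (25.6 to 28.0%), 26.9% of KYSE-30-only promoters (25.4 to 28.4%) and 25.8% of all protein-coding starts. The extended box, as printed above for C9orf85 and RFWD3, was present in 11.4% (10.3 to 12.6%), 5.03%, 4.96% and 4.92% of the same classes. GGGCGG was present in 57.0% of shared promoters, 42.6% of HET-1A-only promoters, 35.4% of KYSE-30-only promoters and 46.6% of all starts. The ETS core was present in 7.55% (6.67 to 8.54%) of shared promoters, 4.08% of HET-1A-only promoters, 4.48% of KYSE-30-only promoters and 4.47% of all starts. AP-1 letters were found in 11.3% of shared promoters, 13.6% of HET-1A-only and 14.7% of KYSE-30-only promoters, 2.62% of all starts and 55.0% of shared distal regions. Shared promoters thus had more CCAAT, GC box and ETS letters and, relative to shared distal regions, few AP-1 letters.

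The rarer cores had smaller differences. The E-box was present in 7.59% of shared promoters, 7.05% of HET-1A-only promoters and 5.996% of KYSE-30-only promoters. YY1 letters were present in 3.31, 2.26 and 2.29%, the cyclic AMP response element in 3.24, 1.93 and 2.196%, NRF1 in 2.92, 2.24 and 1.57% and ZNF143 in 0.746, 0.290 and 0.386% of these classes in the same order. TATAAA was less frequent in shared promoters, at 2.85% (interval 2.32 to 3.50%) against 4.29% (3.77 to 4.88%) and 4.13%, with 7.08% of all starts. CTCF letters were found in 8 shared promoters.

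**Figure D4:**
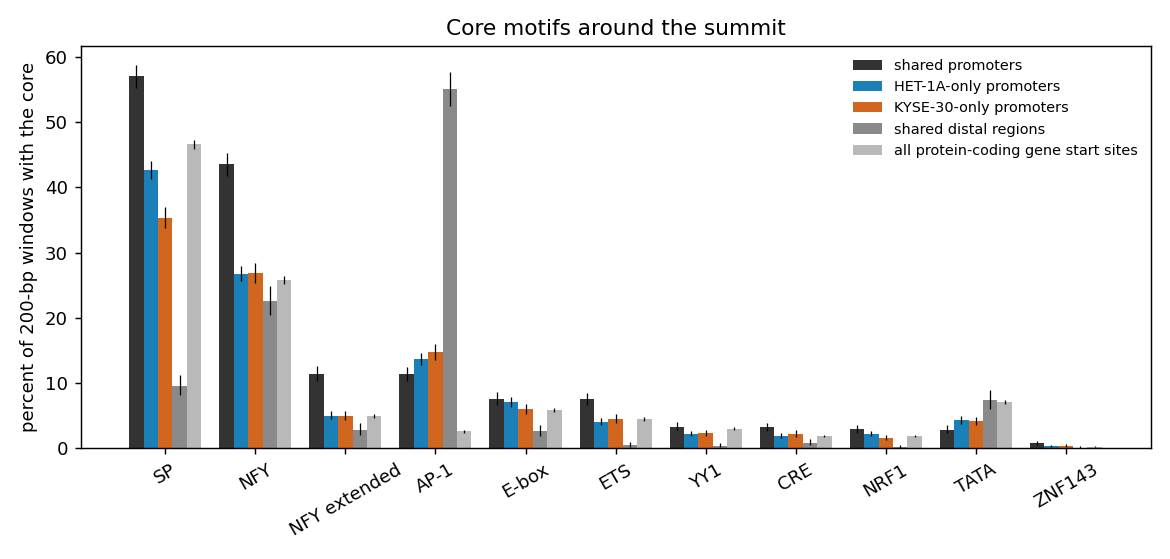
Percent of 200-bp windows around the summit, or around the start of all protein-coding genes, that hold each core motif (y axis), with Wilson 95% intervals. Among promoters, the dark bars of shared promoters are highest for NFY (43.5%) and SP (57.0%), and AP-1 is highest in shared distal regions (55.0%).

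Much of the contrast in motifs moved with position relative to the start site. Among shared promoters, the ETS core was present in 9.35% of the 2427 regions over a start site and in 0.912% of the 658 beside one. AP-1 letters went the other way, with 4.94% (interval 4.15 to 5.88%) over and 34.8% (31.3 to 38.5%) beside a start site. CpG-rich sequence fell from 88.9 to 35.9% between these groups. Fold enrichment was less different, with medians of 5.14 over and 4.56 beside a start site in library 2 of HET-1A and 5.99 and 5.24 in library 6 of KYSE-30.

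Among regions over a start site, the CCAAT box and its extended form were the 2 of the 12 cores whose intervals still separated shared promoters from both other classes. CCAAT was present in 46.8% (interval 44.8 to 48.8%) of 2427 shared promoters, 31.4% (29.6 to 33.3%) of 2481 HET-1A-only promoters and 32.2% (30.0 to 34.4%) of 1769 KYSE-30-only promoters. The extended box was present in 13.1% (11.9 to 14.5%), 7.78% (6.79 to 8.90%) and 7.29% (6.17 to 8.60%). For ETS the values were 9.35% (8.26 to 10.6%), 7.50% (6.53 to 8.60%) and 7.97% (6.80 to 9.33%), with overlapping intervals. GGGCGG was present in 64.2% of shared and 64.1% of HET-1A-only promoters, and in 50.03% of KYSE-30-only promoters. The ETS difference was thus smaller among regions over a start site than among all promoters, and the GC box share there did not differ from that of HET-1A-only promoters beyond counting error.

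The difference in CCAAT was also present at like peak strength. In tertiles of library 2 of HET-1A fold enrichment over start sites, CCAAT was present in 37.8% of shared against 26.1% of HET-1A-only promoters in the lowest tertile, 45.5 against 32.4% in the middle and 52.5% (interval 49.5 to 55.4%) against 41.0% (36.9 to 45.2%) in the highest. In tertiles of library 6 of KYSE-30, shared promoters had 42.1% against 26.9% of KYSE-30-only promoters in the lowest, 44.2 against 29.1% in the middle and 52.7% (49.4 to 56.0%) against 43.9% (39.6 to 48.4%) in the highest. The share also climbed with fold enrichment within each class. Members with the extended box had a peak in library 4 of KYSE-30 in 24.7% of 352 regions, against 13.1% of the members without it, and members with TATAAA in 4.55% of 88 regions.

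The tags at the summit were compared between library 2 of HET-1A and library 6 of KYSE-30, after division by the genome background of each library, its smallest local background (3.34 and 1.49 tags per 200 bp). Across all 4543 regions with a peak in both lists the median ratio was 1.59-fold in favour of library 6 of KYSE-30, a log2 shift of 0.67, and the 3008 shared promoters had a median log2 ratio of 0.64 (SD 0.74). A ratio at least 2-fold higher in library 6 of KYSE-30 was seen in 952 shared promoters (31.6%), against a background of 31.7% of all regions in both lists. One at least 2-fold higher in library 2 of HET-1A was seen in 36 (1.20%), against 1.30%. Relative to the median of all regions the counts were 273 higher in library 6 of KYSE-30 (9.08%, background 9.05%) and 220 higher in library 2 of HET-1A (7.31%, background 7.18%), so the split between lines depends on the scaling. Shared promoters were thus near the background on both scales.

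The replicate libraries of KYSE-30 differed from each other as much as the lines did. In the 369 regions with peaks in libraries 2, 4 and 6, summit tags scaled in this way were 2.15-fold higher in library 6 of KYSE-30 than in library 4 of KYSE-30 (median log2 ratio 1.10, SD 0.56) and 2.02-fold higher than in library 2 of HET-1A (SD 0.88). library 4 of KYSE-30 over library 2 of HET-1A had a median of 0.970-fold (SD 0.60). A difference between lines of this size was therefore no larger than that between replicate libraries. Counting error alone covered most regions, since the 95% interval of the ratio held the median of all regions in 2371 of 3008 (78.8%). The interval lay above that median in 364 regions (12.1%) and below it in 273 (9.08%). The same count was not made over all regions in both lists, so these shares have no background beside them. Across the 3008 regions the Spearman correlation between the scaled tags of both libraries was 0.04 and that between the fold enrichments 0.26, given as descriptions of regions within the same pair of libraries.

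The largest ratios lay where the local background of library 6 was above that of the genome. The relative background of a peak is the ratio of its local background to that of the genome in the same library. ENY2 and NUDCD1 on chromosome 8 had a log2 ratio of 3.85 with 14 tags in library 2 of HET-1A and 90 in library 6 of KYSE-30, where the relative background was 3.70. PSPH and CCT6A on chromosome 7 had 24 and 144 tags (log2 ratio 3.75) and a relative background of 8.66 in library 6 of KYSE-30. EGFR, the epidermal growth factor receptor, had 21 and 106 tags (3.50) at 11.4, and CHCHD2, its neighbour on the same chromosome arm, had 34 and 150 tags (3.31) at 8.36. RAP2B on chromosome 3 had 15 and 56 tags (3.07) at 3.29. The relative background of library 2 of HET-1A at these 5 regions lay between 1.00 and 1.02. Fold enrichment, which divides by the local background, went from 5.06 in library 2 to 5.96 in library 6 at the EGFR region (chr7:55177023-55177626, over an internal start site), a log2 ratio of 0.23. At the other 4 regions it went from 3.45 to 14.0 for ENY2 (log2 ratio 2.02), from 3.62 to 9.66 for RAP2B (1.42), from 5.76 to 10.4 for PSPH (0.86) and from 8.06 to 11.2 for CHCHD2 (0.48). The difference at ENY2 and RAP2B was thus more than 2-fold on this scale too, and that at the other 3 was not.

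At the lowest ratios the local background of library 2 was the higher one. MYC, a transcription factor of growth (chr8:128747411-128748652), had 248 tags in library 2 of HET-1A and 16 in library 6 of KYSE-30, a log2 ratio of -2.79, with relative backgrounds of 19.5 and 2.61. Its fold enrichments were 3.76 and 3.48. PVT1, a non-coding gene beside MYC, had 313 and 22 tags (-2.66), with a relative background of 16.5 in library 2 of HET-1A, and ENSG00000286010 on the same chromosome had 257 and 17 tags (-2.75) at 14.97. TGIF1 on chromosome 18, a repressor of TGF-beta signalling, had 2 regions with log2 ratios of -2.57 and -2.51 at 20.7 and 20.9. ENSG00000286010 and MYC also formed the widest regions, 1350 and 1242 bp, followed by NTAQ1 and DLG1 with 1186 bp each and DCAF11 with 1158 bp. The part of the local background in these ratios was not tested. On the fold enrichment scale 119 shared promoters (3.96%) were at least 2-fold higher in library 6, against 4.38% of all 4543 regions in both lists. In library 2 there were 3 (0.10%), against 0.11%, so shared promoters were near the background on this scale too. A relative background of at least 4 was present at 41 shared promoters in library 2 of HET-1A and at 45 in library 6 of KYSE-30.

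Whole chromosomes also moved with the ratio. Shared promoters on chromosome 5 had a median log2 ratio of 1.04 (192 regions) and those on chromosome 8 of 0.92 (119 regions), while those on chromosome 19 had 0.11 (169 regions) and those on chromosome 18 had -0.19 (35 regions, quartiles -1.26 and 0.98). On the fold enrichment scale the same medians were 0.35, 0.29, 0.03 and 0.26. library 4 of KYSE-30 over library 2 of HET-1A gave 0.08 on chromosome 5 (29 regions), -0.02 on chromosome 8 (14 regions) and -0.35 on chromosome 19 (28 regions), around a median of -0.09 in 446 regions. Across the 3008 regions the log2 ratio had a Spearman correlation of -0.54 with the relative background of library 2 of HET-1A and of 0.38 with that of library 6 of KYSE-30, both of which share tags with the ratio.

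**Figure D5:**
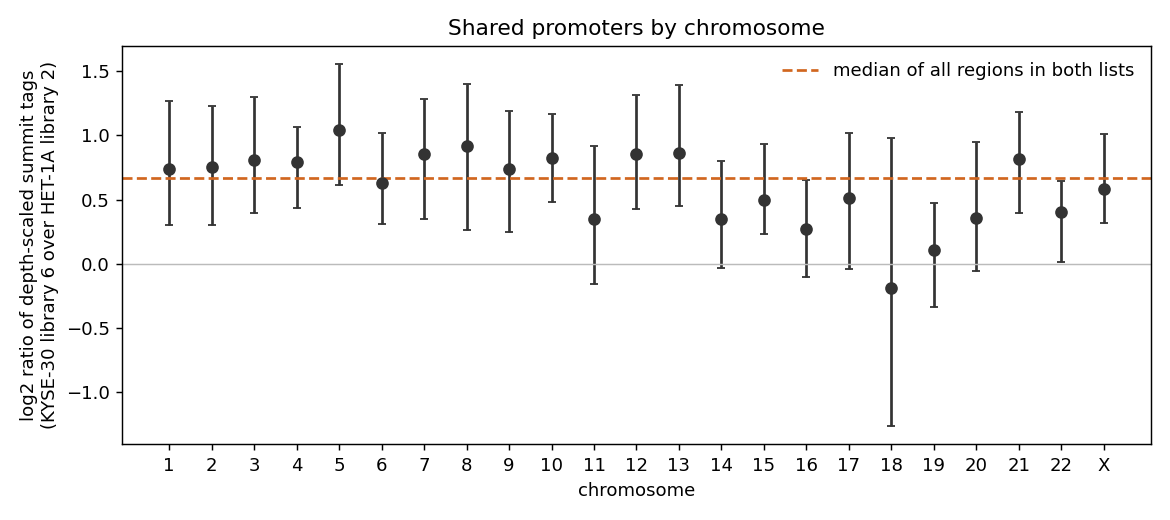
Median log2 ratio of depth-scaled summit tags of library 6 of KYSE-30 over library 2 of HET-1A (y axis) for shared promoters of each chromosome (x axis), with bars from the lower to the upper quartile. Chromosome 5 is highest at 1.04 and chromosome 18 lowest at -0.19, and the dashed line is the median of all regions in both lists, 0.67.

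The number of shared promoters per protein-coding gene differed between chromosomes. Per 100 protein-coding genes there were 21.9 on chromosome 5, 21.8 on chromosome 6 and 21.6 on chromosome 2, but 9.99 on chromosome 4, 3.45 on chromosome X and 0 on chromosome Y. The highest number was on chromosome 1 with 352 regions. These counts include the 365 members with only non-coding start sites within 3 kb. Promoter regions of the other classes were not counted by chromosome, so whether this spread is particular to shared promoters was not tested. At the edge of the 3 kb limit, the farthest members were PER1 at 2993 bp, with fold enrichments of 5.05 in library 2 of HET-1A and 7.19 in library 6 of KYSE-30, MEAK7 at 2974 bp with 3.87 and 4.75 and IL1RAP at 2971 bp with 7.14 and 8.22. Just outside were regions near TTC19 at 3005 bp with 4.60 and 5.60, UQCRHP2 at 3009 bp with 4.58 and 5.00 and HMGN1P9 at 3061 bp with 4.98 and 6.97.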

How the data were processed

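The authors' peak lists of 6 ATAC-seq libraries were used. Per the labels and the study's methods, reads were trimmed with ea-utils, duplicates were handled with Picard 2.2.1, and reads were mapped to hg19 with Bowtie2 2.3.3.1. Blacklisted regions were removed with bedtools 2.7.1, reads were shifted for Tn5, fragments under 100 bp were kept, and peaks were called per library with MACS2 2.1.0.20160309 at a q-value of 0.05 with extension to 200 bp. Libraries were not pooled. The deposited lists give a score, a fold enrichment (a ratio over the local background), and −log10 of the p-value and q-value. Some peak numbers are missing from each list and were not analysed here. Read totals are unknown.

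Peaks were merged from 1 shared bp and annotated with GENCODE 44 on hg19. Summit tags and local background were recovered from the fold enrichment and Poisson p-value of each peak, within a tolerance of 0.001 on the −log10 scale, and tags were divided by the genome background of the library, its smallest local background, as a measure of depth. Scripts were tested on simulated data. Python 3.11.15, pandas 2.3.3, scipy 1.17.1 and pysam 0.24.0 were used. The replicate unit is the library, and the labels call the libraries of a line biological replicates.

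Members and gene lists were chosen with earlier results of these data known. Named regions were the 10 with the highest lower fold enrichment of both lines, those with the most libraries, the 5 highest and 5 lowest tag ratios (at least 20 tags in 1 library), the 3 just inside and just outside 3 kb, up to 4 genes per list by mean fold enrichment and the 5 widest. CCNB1, the marker genes and the splits of motifs by position and strength were chosen after values were seen. Alternatives were a stricter q-value, 50% overlap, a 1 kb promoter, coding start sites only, no condition on KYSE-150, each library left out, 200-bp motif windows and other scalings of the tag ratio. A few values and sequences are not reported here.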

Additional observations from a re-analysis of the deposited data

How the results depend on the processing

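The number of shared promoters, the share with start sites on both strands, the summit distance, the share with at least 2-fold different tags and the share with the ETS core were recomputed under each alternative. With each library left out in turn, the number ranged from 2 (without HET-1A library 2) to 3227, the share with start sites on both strands from 0 to 41.8%, the median summit distance from 75 to 795.5 bp and the ETS share from 0 to 12.5%. The lowest shares and the longest distance come from the 2 regions left without HET-1A library 2, and without KYSE-30 library 6 there were 440 regions, a distance of 75.5 bp and 41.8% with start sites on both strands. Without KYSE-30 library 4 the distance was 75 bp.

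The median distance was 75 bp at a q-value under 0.001, 78 bp with peaks sharing at least 50%, 68 bp with a 1 kb promoter, 77 bp without the condition on KYSE-150 and 80 bp with protein-coding start sites only, against 76 bp. Start sites on both strands were present at 39.5% with a 1 kb promoter and 17.2% with protein-coding start sites only, against 36.1%. With a peak required in both libraries of each line the number was 0, so no share could be given. The ETS core was present in 7.55% with 200 bp around the summit, against 11.4% of whole regions. The share with at least 2-fold different tags was 16.4% after centring and 4.06% from fold enrichments, against 32.8%. It has no value without HET-1A library 2 or KYSE-30 library 6. Without regions on chromosome 18 or with raised background, an alternative chosen after seeing the data, it was 31.8%. Of the rest, 10 values of the number and 11 of the ETS share were counted as unchanged, with a wide spread allowed for the number. It was 2460 with peaks sharing at least 50%, 2720 with protein-coding start sites only and 2821 with a 1 kb promoter, against 3085. These ETS shares lay between 11.2 and 12.6%. No paired analysis was possible because the lines share no library numbers.

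The lists hold only called peaks, and HET-1A library 1, KYSE-30 library 4 and both KYSE-150 libraries have few, so membership rests on HET-1A library 2 and KYSE-30 library 6.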
